A study of Homo sapiens with 6 samples.

Results

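The 10 genes described here, MCL1, BCL2, BCL2L1, BCL2L11, BAX, BAK1, BID, BAD, PMAIP1 and BBC3, encode the best known regulators of mitochondrial apoptosis in the BCL2 family. They were chosen by name, and 9 of them had an array row that the platform annotation gives to that gene alone, 1 row each, of 33616 genes with such a row. BBC3, which encodes the cell death inducer PUMA, had a row shared with the microRNA gene MIR3191, so no value is given for it. The RNA came from H295R, a steroid-producing human adrenocortical carcinoma cell line, kept for 24 h with CX-4945 at 5 µM or with the solvent DMSO alone, 3 arrays per group. CX-4945, also called silmitasertib, blocks protein kinase CK2 and, in addition, the CLK kinases of splicing. All values come from this 1 cell line, and whether its replicates grew as separate cultures is not in the labels. The p-values thus cover the spread among these arrays, and that spread may be technical. The question was whether the RNA of these genes differed between treated and solvent-exposed cells.

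In mitochondrial apoptosis, the survival proteins MCL1, BCL-XL (from BCL2L1) and BCL2 hold the pore-forming proteins BAX and BAK in check. BH3-only proteins such as BIM (from BCL2L11), BID, BAD, NOXA (from PMAIP1) and PUMA respond to stress, and they either occupy the survival proteins or act on BAX and BAK. When the pores open, cytochrome c leaves the mitochondria and caspases are activated. Much of this control is exerted on the proteins, by phosphorylation, cleavage, splicing or degradation, and RNA levels do not show it. The array rows give 1 level per gene, so the long and short splice forms of BCL2L1, MCL1 and BCL2L11, which can differ in action, are not told apart.

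Of the 9 measured genes, 2 were higher with CX-4945 (MCL1 and PMAIP1), 2 were lower (BCL2L1 and BAD) and 5 did not pass the test (BCL2, BAX, BAK1, BCL2L11 and BID). The test was limma over all genes with a Benjamini-Hochberg adjusted p of 0.05. Over all genes 22.8% passed it, 10.3% as higher and 12.5% as lower, and among the 17405 genes above the array background described below 39.1% passed. Of the 7 family genes above that background 3 passed, a share near that of other measurable genes. The median log2 difference of the 9 genes, CX-4945 minus DMSO, was -0.12, against 0.02 over all genes tested. The number of called members fell to 2, MCL1 and PMAIP1, without DMSO replicate 1, without CX-4945 replicate 1 and without CX-4945 replicate 3. All 3 treated arrays lay above all DMSO arrays for 3 genes (17.6% of all genes) and below them for 3 (18.4% of all genes). The groups thus did not overlap in 6 of 9 genes, against 36.0% of all genes. That 36.0% includes genes below background, and the share among genes above it was not computed, so no excess can be read from it. Exact two-sided permutation of the array labels gave p = 0.1 for each of the 6 genes without overlap. This is as low as 3 arrays against 3 can go.

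The array background was set from 400 olfactory receptor genes, which are mostly silent outside the nose, as the 95th percentile of their mean levels. It is a log2 intensity of 6.38, or an intensity of 83.3. BCL2 and PMAIP1 lay below it in both groups and the other 7 genes above it in both. Array medians over all rows were 40.7 to 43.1 with DMSO and 45.8 to 46.5 with CX-4945, and CX-4945 replicate 2 correlated least with its group (r = 0.988 and 0.990 across genes, against 0.994 between replicates 1 and 3). Equal array medians shifted the median difference of all genes from 0.02 to -0.11 on the log2 scale. Of the adrenocortical marker genes 6 of 8 lay above background, with MC2R and INHA below it in both groups. Their summed intensity was 80463 to 88323 with DMSO and 15482 to 22017 with CX-4945. Of these 8 genes 5 were lower and 1 was higher. The log2 differences of the lower genes were -6.33 for CYP11A1, -4.69 for CYP17A1, -2.05 for HSD3B2, -1.77 for NR5A1 and -1.37 for STAR. CYP21A2 on the same list was higher by a log2 difference of 0.83 (adjusted p 0.0167). Of the fibroblast genes 3 of 5 lay above background, led by COL1A1 at a mean log2 intensity of 11.1 with DMSO and 10.9 with CX-4945. The sum of the fibroblast genes was 2262 to 3390 with DMSO and 1759 to 3498 with CX-4945. DCN of that list, above background in both groups, was higher by a log2 difference of 0.81 (adjusted p 0.00879). Above it were also 1 of 5 endothelial genes (sums of 141.7 to 193.7 and 156.3 to 178.3) and 0 of 4 chromaffin genes (110.2 to 123.0 and 85.3 to 101.4). For the 5 leukocyte genes, of which 1 was above background with DMSO and 2 with CX-4945, the sum was 280.4 to 351.6 with DMSO and 414.2 to 536.8 with CX-4945, with the defining gene PTPRC below background in both groups. CD14 was higher by 1.68 on the log2 scale (adjusted p 1.54e-04), from below to above background, and CD68 by 0.77 (adjusted p 0.0336), below it in both groups. The part of these markers in the results was not tested. All arrays are labelled with the 1 cell line H295R, and no other cell type is in the labels. In bulk RNA, fewer cells with a transcript and less of it per cell cannot be told apart.

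**Figure D1:**
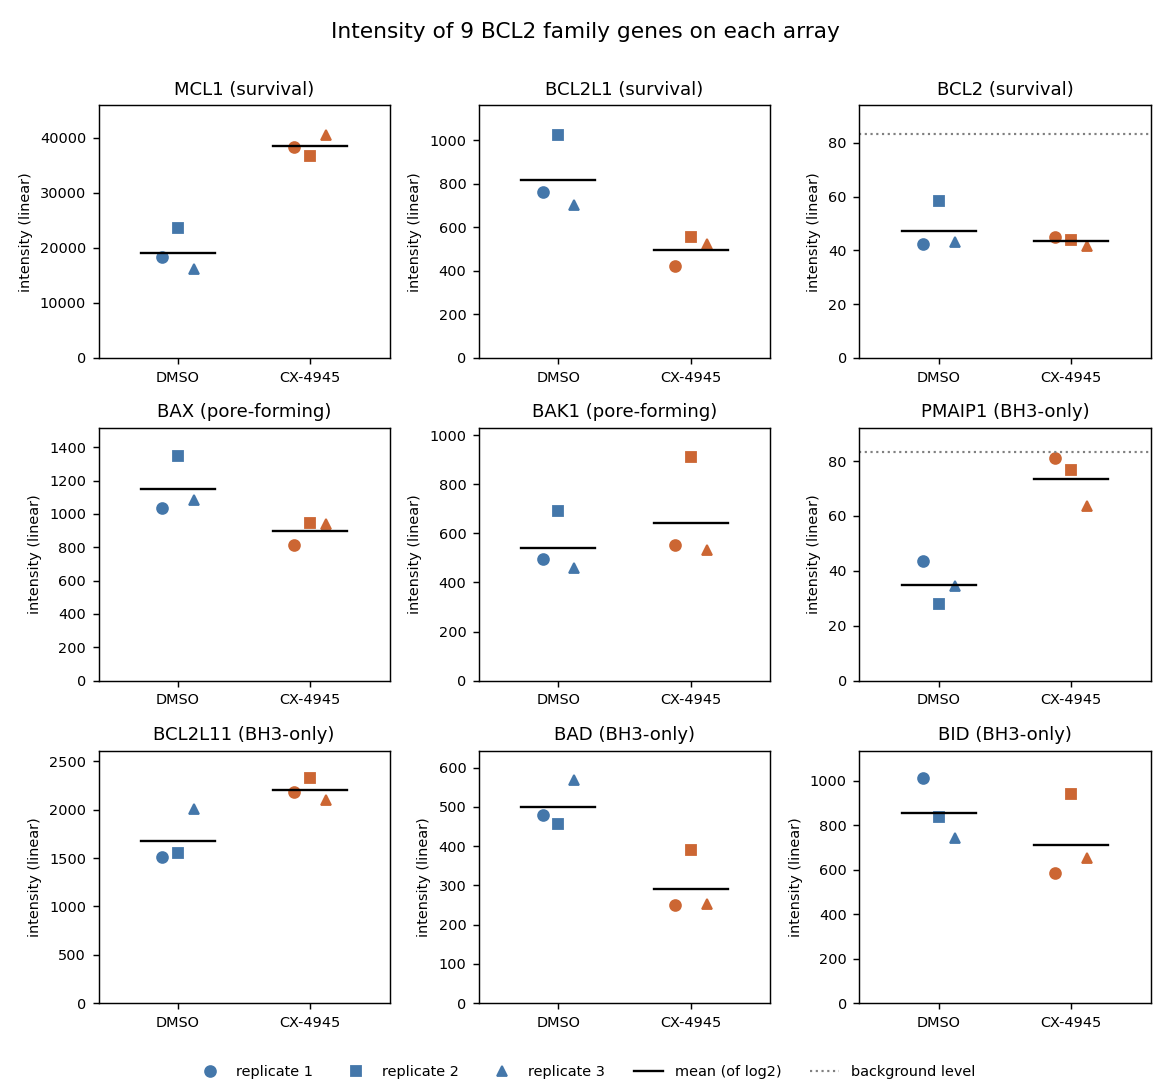
Intensity on a linear axis (from 0) of each of the 9 genes on the 6 arrays, with the replicate number as marker shape, bars at the antilog of the mean log2 intensity and, for BCL2 and PMAIP1, the background level of 83.3 as a dotted line. The groups are separate for MCL1, BCL2L1, BAX, PMAIP1, BCL2L11 and BAD, and overlap for BCL2, BAK1 and BID.

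Among the survival genes, MCL1 and BCL2L1 changed in opposite directions. MCL1, a short-lived protein that restrains BAK in particular, had intensities of 18315, 23617 and 16112 on the DMSO arrays. Its treated intensities were 38403, 36691 and 40516. Every treated array lay well above every DMSO array, and the treated arrays were the more uniform group (SD on the log2 scale 0.07 against 0.28, n = 3 each). MCL1 rose 2.02-fold, with a log2 difference of 1.01 ± 0.15 (SE) and an adjusted p of 2.98e-04. It passed in 18 of 18 alternatives, with log2 differences of 0.88 to 1.16 and an adjusted p of at most 0.0367.

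BCL2L1, whose long form BCL-XL protects cells from several BH3-only proteins, had intensities of 762.4, 1023 and 702.6 with DMSO. With CX-4945 they were 420.6, 553.5 and 521.1. All treated values were below all DMSO values, and DMSO replicate 2 was the highest. BCL2L1 fell 1.65-fold, with a log2 difference of -0.73 ± 0.21 and an adjusted p of 0.0228. BCL2L1 no longer passed without DMSO replicate 1 (adjusted p 0.0541), DMSO replicate 2 (0.122), CX-4945 replicate 1 (0.0778) or CX-4945 replicate 3 (0.0518), without moderation of the variance (0.112) and when all rows were tested (0.0576), while the sign stayed negative in 18 of 18 alternatives. An antisense gene, BCL2L1-AS1, overlaps it in the RefSeq annotation, and whether the row reads strand is not given in the sources used here.

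BCL2, the founding member of the family and a survival gene, had intensities of 42.2, 58.3 and 43.2 with DMSO. On the treated arrays they were 44.9, 43.9 and 41.7. All 6 values lay below the background level and the groups overlapped. The log2 difference was -0.12 with a 95% interval of -0.56 to 0.31 (adjusted p 0.743), so a change of BCL2 was not detectable at this signal.

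**Figure D2:**
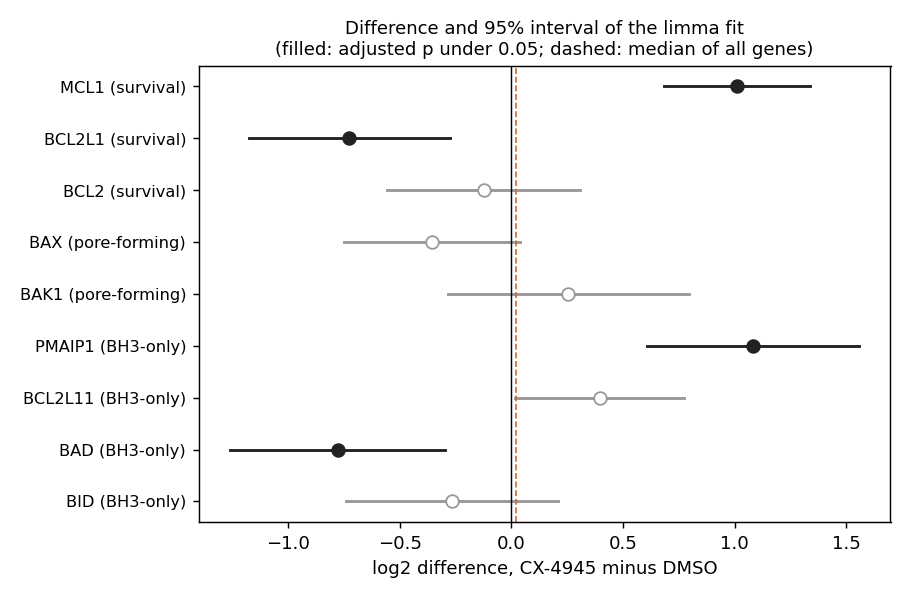
Log2 difference (CX-4945 minus DMSO) of each of the 9 genes, with the 95% interval of the limma fit, ordered by role; filled points passed an adjusted p of 0.05 and the dashed line is the median of all genes (0.02). MCL1 and PMAIP1 lie near 1, BCL2L1 and BAD near -0.75, and the intervals of BCL2, BAX, BAK1 and BID include 0.

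The pore-forming genes did not pass the test. BAX, which moves from the cytosol to the mitochondrial membrane, had intensities of 1035, 1350 and 1085 with DMSO. Its treated intensities were 815.3, 944.7 and 941.2. The treated arrays were all lower than the DMSO arrays, by a log2 difference of -0.35 ± 0.18 that did not pass (95% interval -0.75 to 0.04, adjusted p 0.206). BAX passed in 0 of 18 alternatives, with adjusted p from 0.0699. BAK1, whose protein sits in the mitochondrial membrane already in healthy cells, had intensities of 497.4, 690.4 and 457.7 with DMSO. With treatment they were 552.3, 913.4 and 530.7. Replicate 2 was the highest array in both groups, and the groups overlapped. The log2 difference of BAK1 was 0.26 with a 95% interval of -0.28 to 0.79 (adjusted p 0.549), and without CX-4945 replicate 2 it was 0.0045. The RefSeq annotation names the pseudogenes BAK1P1 and BAK1P2, and signal from such copies cannot be told apart here.

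Among the BH3-only genes, PMAIP1 rose and BAD fell. PMAIP1 encodes NOXA, a partner of MCL1 that p53 and the stress factor ATF4 are known to induce. Its intensities were 43.6, 27.9 and 34.3 with DMSO. The treated intensities were 81.0, 76.9 and 63.5. Every treated array was above every DMSO array, yet all 6 values lay below the background level of 83.3. PMAIP1 was higher by a log2 difference of 1.08 ± 0.22 (adjusted p 0.00284), a measured 2.12-fold whose size depends on the floor of the array. Its mean moved from the 70.5th to the 92.0th percentile of the olfactory receptor genes of the same group. It passed in 15 of 16 alternatives, the exception being the fit without moderation (adjusted p 0.0547); the filters at the median and at the olfactory receptor level left it out of the test.

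BAD, which binds BCL-XL and BCL2 and is switched off by growth factor signalling through phosphorylation, had intensities of 479.0, 455.3 and 568.2 with DMSO. Its treated intensities were 249.1, 390.3 and 253.3. CX-4945 replicate 2 stood between the other treated arrays and the DMSO arrays, and the groups did not overlap. BAD fell 1.71-fold, with a log2 difference of -0.78 ± 0.22 and an adjusted p of 0.0229. It did not pass without DMSO replicate 1 (adjusted p 0.0620), DMSO replicate 3 (0.102), CX-4945 replicate 1 (0.0761) or CX-4945 replicate 3 (0.0940), without moderation (0.128) and with all rows tested (0.0590). Without CX-4945 replicate 2 the difference of BAD was -0.99 (adjusted p 0.00134). The gene GPR137 overlaps BAD in the RefSeq annotation.

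BCL2L11, whose protein BIM can bind all the survival proteins and activate BAX, had intensities of 1506, 1551 and 2003 with DMSO. With CX-4945 they were 2179, 2330 and 2097. The lowest treated array was only slightly above DMSO replicate 3. The log2 difference of 0.40 ± 0.17 did not pass (95% interval 0.02 to 0.77 before adjustment, adjusted p 0.135), nor did it in any of 18 alternatives. BID, which caspase-8 cleaves to link death receptors to mitochondria, had intensities of 1011, 839.6 and 742.2 with DMSO. Its treated intensities were 586.5, 942.3 and 654.8. CX-4945 replicate 2 lay within the DMSO range and the other treated arrays below it. The log2 difference of BID was -0.27 with a 95% interval of -0.74 to 0.21 (adjusted p 0.465), and without CX-4945 replicate 2 it was -0.47 (adjusted p 0.0818).

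CX-4945 replicate 2 was thus the highest treated array for BAK1, BID and BAD, by 0.75, 0.60 and 0.64 on the log2 scale over the mean of replicates 1 and 3. Over all genes that deviation had a median of 0.0034 and a middle range of -0.27 to 0.27 (25th to 75th percentile), and the 3 genes lay at its 96.4th, 92.7th and 93.7th percentiles. For MCL1, BCL2, BCL2L11, BAX and PMAIP1 the same deviation was between -0.10 and 0.12, and for BCL2L1 it was 0.24. Replicate 2 was the highest treated array for BCL2L1, BCL2L11 and BAX as well.

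**Figure D3:**
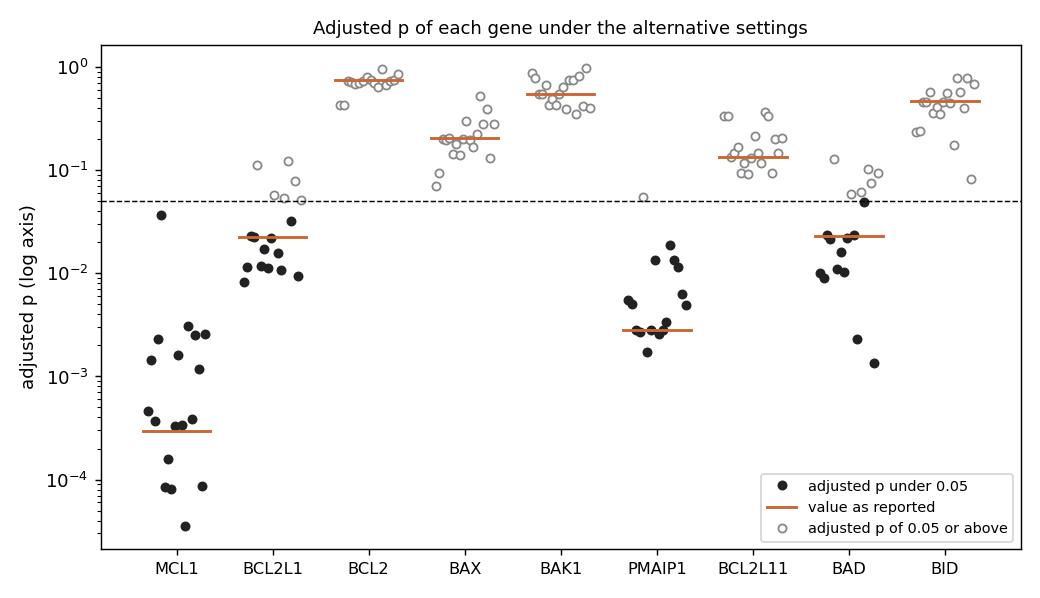
Adjusted p (log axis) of each of the 9 genes as reported (bar) and in each alternative setting (points; filled where under 0.05, the dashed line). MCL1 stays under the line in 18 of 18 settings and PMAIP1 in 15 of 16, BCL2L1 and BAD in 12 of 18 each, and the other 5 genes in none.

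For 3 partner pairs the log2 ratio within each array was compared between groups, which tests whether 2 genes changed unequally and says nothing of their relative level. The PMAIP1 to MCL1 ratio changed by 0.07 (two-sided exact permutation p = 1), both genes having risen by about the same log2 difference (1.08 and 1.01). All PMAIP1 values were below background, so this ratio does not show that both genes changed equally, and with 16 added before log2 its change was -0.20. Its change lay between -0.24 and 0.27 on leaving out single arrays, so its sign depended on which arrays were used. The BAD to BCL2L1 ratio changed by -0.05 (exact p = 0.9), with a range of -0.28 to 0.15 over the same omissions. The BAX to BCL2 ratio changed by -0.23 (exact p = 0.1, the smallest possible, and 0.3 adjusted over the 3 pairs), with all treated arrays below all DMSO arrays. BCL2 was below background, so the size of this change depends on the floor of the array.

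Promoter windows of 300 bases (250 before to 50 after a gene's start, RefSeq, GRCh38.p14) were found for 9 of the 10 genes, all but MCL1. They were searched on both strands for letters that stress-responsive and cAMP-responsive factors are known to bind, because genes of that response (ATF4, DDIT3, JUN) were high with treatment. Windows of PMAIP1, BAD and BCL2L1, called in opposite directions, are shown with the core letters of the cAMP response element (TGACG or CGTCA) in capitals. They lie at chr18:59899746-59900045 on the plus strand, chr11:64284655-64284954 on the minus strand and chr20:31723914-31724213 on the minus strand, each written 5′ to 3′ in the gene's direction.
PMAIP1: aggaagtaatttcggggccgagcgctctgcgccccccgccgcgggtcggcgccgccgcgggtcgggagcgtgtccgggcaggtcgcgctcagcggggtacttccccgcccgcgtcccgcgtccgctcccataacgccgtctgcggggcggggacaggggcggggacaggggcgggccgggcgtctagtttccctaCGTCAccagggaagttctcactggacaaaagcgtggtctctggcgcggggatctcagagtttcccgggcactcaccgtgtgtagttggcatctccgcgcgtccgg
BAD: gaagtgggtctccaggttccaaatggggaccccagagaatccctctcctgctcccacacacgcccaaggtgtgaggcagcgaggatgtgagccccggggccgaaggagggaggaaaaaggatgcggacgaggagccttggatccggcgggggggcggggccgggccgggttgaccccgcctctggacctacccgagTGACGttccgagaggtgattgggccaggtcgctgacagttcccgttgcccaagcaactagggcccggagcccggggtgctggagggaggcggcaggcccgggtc
BCL2L1: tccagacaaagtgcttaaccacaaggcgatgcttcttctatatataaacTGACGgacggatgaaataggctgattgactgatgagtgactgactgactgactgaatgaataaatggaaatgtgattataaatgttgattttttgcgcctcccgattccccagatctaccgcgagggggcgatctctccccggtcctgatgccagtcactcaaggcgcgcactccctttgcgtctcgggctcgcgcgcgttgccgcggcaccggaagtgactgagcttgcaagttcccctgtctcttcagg

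The core starts 55 bases before the gene start in the PMAIP1 window, 54 before it in BAD and 201 before it in BCL2L1. Windows of BAX and BCL2 hold it too, so that it was found for 5 of 9 genes. By window it was in 6 of the 15 windows of these genes and in 24.55% of 35116 windows in RefSeq, and the other BCL2L1 window, chr20:31722819-31723118, does not hold it. Windows of a gene can overlap, and both BAD windows hold the same site, so the window shares count it more than once. It is thus present in a gene that rose, in genes that fell and in genes that did not pass. The full element TGACGTCA, which contains the core on both strands, was in no window of the 9 genes and in 1.85% of all windows, and the composite C/EBP-ATF letters TGATGCAA in none of the 9 and in 0.87% of all. The E-box CACGTG occurred 4 times in the BAX window and also for BID and BBC3, in 4 of 15 windows against 7.26% of all windows. For BID it is a single site held by overlapping windows. The AP-1 letters TGACTCA were found for BBC3 alone among the 9, in 1 of 15 windows against 4.95% of all. These are matches of letters, not binding sites.

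Regulators known to act on BH3-only genes included some of the highest rises among the apoptosis genes. Of 10 measured, 5 were higher and 0 lower, with a median log2 difference of 0.62 against 0.02 over all genes. The share called was 50%, against 22.8% of all genes. All 5 called genes were among the 9 of the list above background, while 39.1% of all genes above background were called. This list, like the others below, was chosen with earlier results of these data known. Its counts and median therefore only describe it. Over 18 alternatives 4 to 8 were called. The stress factor ATF4 had intensities of 4106, 4053 and 3637 with DMSO and 12993, 15761 and 13011 with CX-4945, and rose 3.53-fold (log2 difference 1.82 ± 0.15, adjusted p 2.35e-06). DDIT3 or CHOP, an ATF4 target known to raise BIM and lower BCL2 transcription, stood at 264.5, 259.5 and 209.7 with DMSO and at 4709, 6691 and 4534 with CX-4945. The groups of both genes were far apart on every array. JUN, known to induce BIM in neurons, rose by a log2 difference of 4.05, and the pseudokinase TRIB3, a target of CHOP, by 5.69. FOXO1, a factor that activates the BIM gene, differed by 0.68 (adjusted p 0.0239) and passed in 11 of 18 alternatives, the highest adjusted p being 0.108. MYC (0.56), FOXO3 (0.17), CEBPB (0.25), E2F1 (-0.53) and TP73 (-0.74) did not pass.

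Of 8 genes for turnover of the MCL1 protein, 4 were lower and 1 higher, with a median log2 difference of -0.62. All 8 lay above background, and 62.5% of them were called, against 39.1% of genes above background and 22.8% of all genes. HUWE1, a ubiquitin ligase that marks MCL1 for degradation, had intensities of 12746, 13957 and 15167 with DMSO and 6045, 5385 and 5274 with CX-4945. It fell by 1.32 on the log2 scale (SE 0.14, adjusted p 2.29e-05). The substrate receptors FBXW7 and BTRC of other MCL1 ligases fell by 1.40 and 1.39, and the deubiquitinase USP13, which stabilises MCL1, by 0.93. HUWE1, FBXW7 and BTRC passed in 18 of 18 alternatives and USP13 in 17. The log2 difference of USP13 was -1.10 to -0.47 over the alternatives, with an adjusted p up to 0.117. The deubiquitinase USP9X, which also protects MCL1, did not pass (-0.30). GSK3B, a kinase that phosphorylates MCL1 for degradation, rose by 0.51, a call kept in 14 of 18 alternatives (adjusted p up to 0.0658). MCL1 protein was not measured.

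Of the 13 other BCL2 family genes, 1 was higher and 2 were lower, or 23.1% against 22.8% of all genes, with a median of -0.08. BNIP3L, a receptor for mitophagy, had intensities of 4295, 4721 and 5045 with DMSO and 1233, 932.5 and 1322 with CX-4945, and fell 4.07-fold (log2 difference -2.02 ± 0.18). BCL2L12, a relative with an inhibitory role in apoptosis, rose by 0.99 and BCL2L15 fell by 0.96, the latter from near background to below it and with its call kept in 15 of 17 alternatives. BCL2A1 (0.49), a further survival gene, did not pass and lay below background in both groups. Without CX-4945 replicate 2, 6 of these 13 genes were called, 3 in each direction, and with array weights 5.

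**Figure D4:**
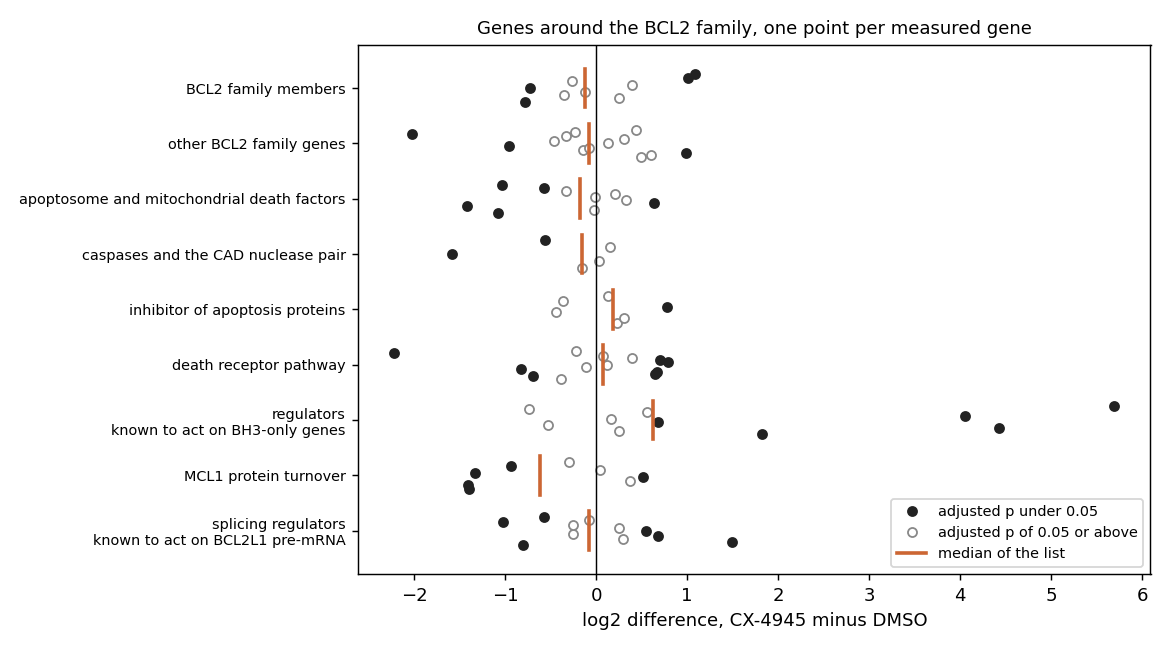
Log2 difference (CX-4945 minus DMSO) of each measured gene of the 9 groups, one point per gene, filled where the adjusted p was under 0.05, with a bar at the group's median. The regulators of BH3-only genes extend furthest to the right, to 5.69 for TRIB3 and 4.43 for DDIT3. The genes of MCL1 turnover have the lowest median, -0.62. The groups were chosen with earlier results of these data known.

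Downstream of the BCL2 family, 4 of 10 apoptosome and mitochondrial death factors were lower and 1 was higher, with a median of -0.18. Thus 50% were called, against 22.8% of all genes and 39.1% of genes above background. CASP9, the initiator caspase of the apoptosome, fell by 1.42, and AIFM1, a flavoprotein released in cell death, by 1.08. The outer membrane channels VDAC3, by 1.03, and VDAC2, by 0.57, fell as well, VDAC2 with its call kept in 16 of 18 alternatives. CYCS, which encodes cytochrome c, rose by 0.64, though it has many processed pseudogenes (45 are named after it in RefSeq) whose signal cannot be told apart here. Among 5 measured genes of caspases and the caspase-activated nuclease, CASP6 fell by 1.59 and DFFB by 0.56, the latter below background and called in 6 of 15 alternatives (adjusted p up to 0.189). These calls are 40% of that group, against 22.8% of all genes. Of its 4 genes above background CASP6 alone was called, while 39.1% of all genes above background were called. Of 6 inhibitors of apoptosis, BIRC6 was higher by 0.78, called in 9 of 18 alternatives (adjusted p up to 0.201), while BIRC5 or survivin (-0.44) and the other members did not pass. This call is 16.7% of the inhibitors, against 22.8% of all genes.

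Of 13 measured death receptor genes, 4 were higher and 3 lower, with a median of 0.08. Thus 53.8% were called, against 22.8% of all genes. All 7 called genes were among the 9 of the group above background, while 39.1% of all genes above background were called. The ligand TRAIL, from TNFSF10, had intensities of 519.1, 709.9 and 590.8 with DMSO and 108.4, 150.8 and 132.8 with CX-4945, and fell by 2.22 on the log2 scale (SE 0.21, adjusted p 8.22e-06). CFLAR, which encodes the caspase-8 inhibitor FLIP, rose by 0.65 and was called in 17 of 18 alternatives. FAS fell by 0.82 and CASP8 by 0.70, while TNFRSF10B, the TRAIL receptor known to be induced by CHOP, rose by 0.79, TNFRSF10C by 0.70 and FADD by 0.67. The calls of these 5 genes held in 10 to 16 of 18 alternatives, with adjusted p up to 0.228. Of the group 4 genes were called when replicate 1 or 3 of DMSO or replicate 3 of CX-4945 was left out, and 3 without moderation. Quantile normalization left 1 higher and 3 lower.

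Splicing regulators known to act on BCL2L1 pre-mRNA numbered 11 with a row, of which 3 were higher and 3 lower, with a median of -0.08. All 11 lay above background, and 54.5% were called, against 39.1% of genes above background and 22.8% of all genes. SRSF1 fell by 1.03 and HNRNPA1 by 0.81, and HNRNPF rose 2.82-fold. The direction in which each regulator acts on BCL2L1 splicing was not examined here. These 3 passed in 18 of 18 alternatives. HNRNPA1 has 75 pseudogenes named after it in RefSeq, HNRNPK 5 and HNRNPF 1. The HNRNPK row was dim, with a mean log2 intensity of 7.88 with DMSO against 17.42 for HNRNPA1. HNRNPK (0.68), RBM10 (0.54) and SRSF9 (-0.57) were called in 9 to 11 of 18 alternatives, with adjusted p up to 0.174. When replicate 1 or 2 of DMSO or replicate 3 of CX-4945 was left out, 3 of the 11 genes were called. The form in which BCL2L1 was spliced was not measured.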

How the data were processed

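RNA of 6 samples, 3 labelled DMSO and 3 labelled CX-4945, was measured on whole-transcript arrays. The deposited values were linear intensities, 1 per row and array, made with Affymetrix Expression Console per the submitters' processing notes. For its version, normalization, background step and genome build, the sources used here give nothing. Of 135750 rows, 36176 had 1 gene symbol, 1119 several and 98455 none in the platform annotation. Of several rows of a gene the one with the highest mean log2 intensity was kept, which left 33616 genes, with no filter on dim genes. Log2 values without pseudocount were fitted with limma 3.58.1 in R 4.3.3 (lmFit, eBayes with an intensity trend, two-sided). P-values were adjusted over all genes by Benjamini-Hochberg, with 0.05 as the threshold. The fit was tested on simulated data. The members and gene lists were chosen with earlier results of these data known. All 10 members were to be named with every array's value; of other lists all called genes where 5 or fewer, otherwise up to 4 in each direction by adjusted p, may be named. Alternatives were 2 scalings, 16 added before log2, other variance settings, 3 filters on dim genes, averaged rows per gene, every row as a test, a replicate block, array weights and leaving out each array. Promoter windows came from RefSeq (GRCh38.p14). Plots were drawn with matplotlib 3.10.9. The number of arrays limits the precision.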

Additional observations from a re-analysis of the deposited data

How the results depend on the processing

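MCL1 passed under all 18 alternatives, and no called family gene changed sign in any. The count of called family genes, 4, was 1 without moderation of the variance (MCL1), 2 with all rows tested (MCL1 and PMAIP1), and 2 to 4 on leaving out single arrays. The fit without moderation shares no variance between genes, and the fit of all rows has more tests. Leaving out an array did not always lower the calls. Without CX-4945 replicate 2, 8921 of all genes passed, against 7665, and BCL2L1 and BAD still passed (adjusted p 0.00934 and 0.00134). The cause of the fewer calls was not tested. BCL2 was 0.026 without DMSO replicate 2, in a range of -0.207 to 0.026 over the omitted arrays. The PMAIP1 to MCL1 ratio turned to -0.016 with quantile normalization and to -0.20 with 16 added before log2, and ranged from -0.24 to 0.27 on leaving out arrays, against -0.28 to 0.15 for BAD to BCL2L1 and -0.29 to -0.14 for BAX to BCL2; the cause was not tested.

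Whether replicate numbers pair the arrays was not settled. Deviations of same-numbered arrays correlated weakly, at 0.09, 0.09 and -0.04. The values of replicates 1 and 2 were the highest of all array pairs across groups, while DMSO replicate 3 correlated best with CX-4945 replicate 1 (0.05). With the replicate block 8058 genes were called, against 7665, and 4 family genes in both fits. Quantile normalization and equal medians lowered the share of rises among all calls, with 2624 and 2539 genes higher and 5271 and 5291 lower, against 3469 and 4196. Signal over background limits BCL2 and PMAIP1.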
